A study of Mus musculus with 6 samples.

Results

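The TGF-beta and BMP signalling genes are the ligands, receptors and SMAD proteins of the transforming growth factor beta superfamily, and they were followed here in sinoatrial node (SAN) tissue of adult WT and HCN4FEA mice, profiled on 6 Affymetrix whole-transcript arrays, 3 per genotype. HCN4FEA mice are a knockin line whose pacemaker channel HCN4 carries substitutions in the cyclic nucleotide-binding domain and the C-linker and no longer responds to cAMP. Both genotypes came from in-house breeding on a mixed genetic background, the labels name no treatment, and nothing used here gives the zygosity of the mice on the arrays. The members were chosen by gene symbol alone, as every gene on a probe set with 1 symbol in the platform annotation that starts with the name of a Bmp, Gdf, Tgfb, inhibin, activin receptor, BMP or TGF-beta receptor or Smad gene. This gave 52 genes of 22180 with such a probe set. The brightest of 53 probe sets stood for each gene, so that only a dimmer probe set of Gdf5 was set aside.

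Ligands of this family are made as pro-proteins, cut by proteases of the furin type and secreted as dimers. A dimer joins type II and type I receptor kinases, and the type I receptor phosphorylates receptor-regulated SMADs, Smad2 and Smad3 after TGF-beta and activin, Smad1, Smad5 and Smad9 after BMPs. These enter the nucleus with the common partner Smad4, while Smad6 and Smad7 inhibit the pathway. In the heart TGF-beta is best known as a driver of fibroblast activation and matrix production, and BMPs for patterning the atria and the pacemaker region during development.

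All 14 sinoatrial markers found, among them Hcn4, Shox2, Isl1 and Tbx3, gave signals above 2.42, the 99th percentile of the means of 1405 olfactory and vomeronasal receptor probe sets, which served as background together with their 95th percentile of 1.70. The labels call the mice male, but on all 6 arrays the X inactivation transcript Xist was high, from 8.97 to 9.43, while Y-linked Uty, Eif2s3y and Kdm5d averaged 1.29, 1.38 and 1.41, under the background's 95th percentile. WT 1 and HCN4FEA 3 stood apart in 13 neuron markers, with scores of 1.24 and 1.85 against -0.96 to -0.60 on the other arrays. The score is the mean deviation of the list from its average over the 6 arrays, in log2 units, and of this list Elavl4 lay under the 95th percentile of the background. WT 1 also had the lowest score over 10 mesothelial markers, -0.76 against 0.07 to 0.25. Adipocyte markers were lower in HCN4FEA tissue, 7 of 16 having an unadjusted p under 0.05 in that direction and 0 in the other, with a median log2 fold change of -0.52, and Lep under the background's 95th percentile. In tissue RNA, fewer cells of a type and less RNA per cell cannot be told apart. The methods give 3 mice per genotype, as many as there are arrays, and all p-values rest on the spread of these 6 arrays.

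Of the 52 genes, 34 had a mean signal above the 99th percentile of the background, 10 lay between the 95th and the 99th, and 8 lay under the 95th. All 8 SMAD genes and 8 of 11 type I and type II receptor genes were above the 99th percentile, against 11 of 26 genes of ligands and ligand subunits. The ligand genes under the 95th percentile were Bmp8a, Bmp8b, Bmp15, Gdf3, Gdf5, Inhbb and Inhbe. Bmp8a and Bmp8b are near-identical copies, so their probe sets may read each other's transcripts. Bmpr1b, a type I receptor of BMPs, lay under it as well.

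The 5 members with an unadjusted p under 0.05 were all genes of ligands or ligand subunits. At an unadjusted p under 0.05 from limma, 3 of the 52 genes were higher in HCN4FEA tissue (Tgfb2, Bmp4 and Bmp6) and 2 were lower (Bmp3 and Inha). That is 5.77% and 3.85% of the members, beside 3.4% higher and 2.71% lower over all 25341 probe sets tested, or 9.62% beside 6.1% in either direction. With a fold change of at least 1.5, the threshold of the study, 3 members remained (Tgfb2 higher, Bmp3 and Inha lower) against 1.13% of all probe sets in either direction. None passed an adjusted p of 0.05 in limma, the smallest being 0.724, and of all probe sets 0 did, with 1547 under an unadjusted p of 0.05 by limma and 1021 (4.03%) by the test that the methods name, called the methods' t-test here. The median log2 fold change of the members was 0.08, with 40 positive and 12 negative, beside a median of 0.01 over all 25341 probe sets, of which 13435 were positive. Above the 99th percentile of the background the median was 0.08 over 34 members, 25 of them positive. It was 0.03 over the 12774 probe sets at that level, 7414 of them positive. The values of HCN4FEA lay entirely above those of WT for 7 members, 13.5% beside 6.31% of all probe sets, and entirely below for 1, 1.92% beside 4.92%. Among the 29 members with a mean of at least 4, 3 of 29 were higher, beside 4.31% of such probe sets. Of these 29, 1 was lower beside 1.87%, and 4 of 29 passed in either direction beside 6.18%. Of the same 29, 7 lay entirely higher beside 8.75%, and 1 of 29 lay entirely lower beside 4.03%. Counts of members by the methods' t-test were 3 higher and 1 lower, with Acvr1b past the threshold in place of Tgfb2, and Inha no longer past it.

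**Figure D1:**
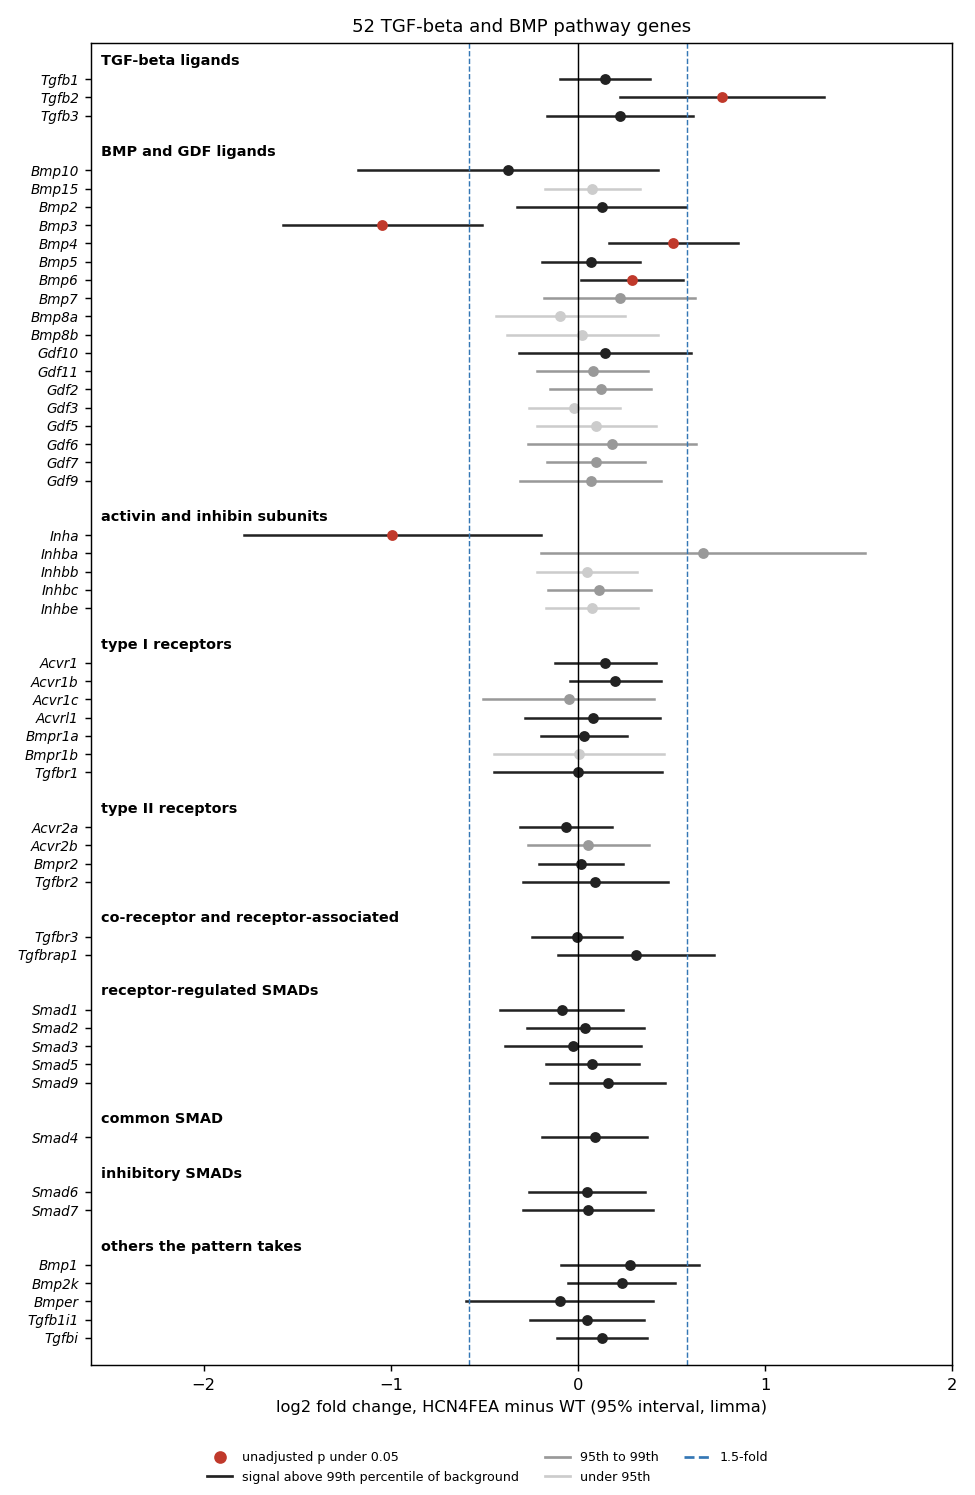
Log2 fold change (HCN4FEA minus WT) of each of the 52 genes with its 95% confidence interval from limma, grouped by role. Red points passed an unadjusted p of 0.05, grey shades give the signal relative to the receptor background, and dashed lines mark 1.5-fold in either direction. The intervals of all 11 type I and type II receptors and all 8 SMADs lie within the dashed lines, while Bmp3, Inha and Tgfb2 lie farthest from 0 among the red points.

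Tgfb2 encodes one of the TGF-beta ligands, which in the embryonic heart acts on the forming valves. Its log2 signals were 5.40, 5.34 and 5.67 on WT 1, 2 and 3 and 6.08, 5.85 and 6.79 on HCN4FEA 1, 2 and 3. Every HCN4FEA array was above every WT array, and HCN4FEA 3 stood above the rest. By limma the difference was 0.77 log2 units with a 95% interval of 0.22 to 1.31 and an adjusted p of 0.778, and the exact permutation test, two-sided, gave p = 0.1, the smallest that 3 against 3 can reach. Tgfb2 passed an unadjusted p of 0.05 with any single array left out, with log2 fold changes from 0.49 without HCN4FEA 3 to 0.96 without HCN4FEA 2. Without both WT 1 and HCN4FEA 3, the arrays rich in neuron transcripts, it was at 0.46 and still past it. By the methods' t-test it was not, nor by the same kind of test with equal variances. The SD was 0.49 in HCN4FEA and 0.18 in WT tissue (3 arrays each). On HCN4FEA 3 the neuron score was the highest as well, and it was also high on WT 1 (1.24), where Tgfb2 was at 5.40. Also highest on HCN4FEA 3 was the score over 10 cartilage, tendon and valve markers, 0.35 against 0.00 and 0.01 on the other HCN4FEA arrays. It was -0.24 to -0.04 on the WT arrays, with 2 of 10 markers higher and Acan, Tnmd, Hapln1 and Matn3 under the background's 95th percentile. Scores over 10 skeletal muscle markers were 0.31 on HCN4FEA 3, 0.14 and 0.04 on HCN4FEA 1 and 2, and -0.29 to -0.07 on the WT arrays. Of that list Myh1, Myh2 and Myh4 lay under the same percentile. The part of these cells in the Tgfb2 result was not tested.

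Tgfb1, the most widely studied TGF-beta ligand, was at 5.56, 5.57 and 5.65 on the WT arrays and at 5.73, 5.66 and 5.82 on the HCN4FEA arrays. These groups did not overlap either, but the log2 fold change was small, 0.14 (interval -0.10 to 0.38). Tgfb3 was at 6.39, 6.50 and 6.99 in WT and at 6.94, 6.75 and 6.85 in HCN4FEA tissue, a difference of 0.22 (interval -0.17 to 0.61). WT 3 was the highest of all Tgfb3 values, and without that array the log2 fold change was 0.40 and passed an unadjusted p of 0.05. The point estimates of the 3 TGF-beta ligand genes were thus all above 0, and only that of Tgfb2 had an interval that left out 0.

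The regions around RefSeq start sites of the genes past the threshold are shown because the array reads transcripts. Whether transcripts begin at these sites in SAN tissue was not tested. RefSeq windows of 300 bases, from 250 before to 50 after a start site (GRCm38.p6), were matched for 37 of the 52 genes by symbol. Among the 5 genes past the threshold Tgfb2, Bmp4, Bmp6 and Inha had 1 each, all printed 5′ to 3′ on the gene's strand, and Bmp3 was not matched. Capitals mark the motifs searched on both strands, which were the cAMP response element TGACGTCA and its half-site TGACG (contained in the full element), the SMAD palindrome GTCTAGAC, the SMAD box CAGACA, the GC-rich SMAD site GGCGCC and the TATA box TATAAA.
Tgfb2, chr1:186705940-186706239, minus strand: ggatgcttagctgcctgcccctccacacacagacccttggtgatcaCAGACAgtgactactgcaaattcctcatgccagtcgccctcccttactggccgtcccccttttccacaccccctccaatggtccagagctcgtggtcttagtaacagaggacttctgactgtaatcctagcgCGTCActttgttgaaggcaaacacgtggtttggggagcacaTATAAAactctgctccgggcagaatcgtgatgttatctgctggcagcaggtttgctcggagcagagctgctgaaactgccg
Bmp4, chr14:46390620-46390919, minus strand: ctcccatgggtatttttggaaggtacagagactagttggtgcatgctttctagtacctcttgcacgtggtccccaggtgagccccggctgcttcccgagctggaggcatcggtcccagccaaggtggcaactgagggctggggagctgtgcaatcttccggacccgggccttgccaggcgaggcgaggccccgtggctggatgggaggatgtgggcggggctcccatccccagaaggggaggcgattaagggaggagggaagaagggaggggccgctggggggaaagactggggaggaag
Bmp6, chr13:38345466-38345765, plus strand: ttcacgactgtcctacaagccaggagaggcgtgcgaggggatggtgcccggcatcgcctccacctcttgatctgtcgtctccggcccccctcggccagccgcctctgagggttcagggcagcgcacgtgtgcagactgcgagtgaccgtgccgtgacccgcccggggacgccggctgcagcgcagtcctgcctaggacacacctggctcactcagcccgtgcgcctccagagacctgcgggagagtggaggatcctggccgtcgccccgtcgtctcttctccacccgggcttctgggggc
Inha, chr1:75507359-75507658, plus strand: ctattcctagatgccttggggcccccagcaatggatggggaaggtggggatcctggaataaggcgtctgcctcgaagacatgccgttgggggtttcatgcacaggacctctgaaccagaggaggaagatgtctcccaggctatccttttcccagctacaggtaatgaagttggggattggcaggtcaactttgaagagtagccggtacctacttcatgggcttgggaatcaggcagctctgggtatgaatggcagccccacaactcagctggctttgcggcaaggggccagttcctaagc
Counted from the start site, the Tgfb2 window held a SMAD box starting at -204, a half-site of the cAMP response element on the other strand at -72 and a TATA box at -31. The windows of Bmp4, Bmp6 and Inha held none of the motifs searched, which says nothing about sequences outside these windows. The printed Inha sequence begins with a long stretch that has no stop codon in 1 reading frame. This window may therefore lie within the gene rather than upstream of it, and no other start site of Inha was searched. Of all 32851 windows of that length, 21% held the SMAD box, 20.8% the half-site, 13.6% the TATA box, 11.9% the GC-rich site, 1.79% the full element and 0.213% the palindrome. Over the 44 windows of member genes the shares were 13.6% for the SMAD box, 15.9% for the half-site, 13.6% for the TATA box, 25% for the GC-rich site, 0% for the full element and 2.27% for the palindrome. The GC content was 54.3% for Tgfb2, 64% for Bmp4, 69.3% for Bmp6 and 55.3% for Inha, beside medians of 65.2% over the member windows and 52.7% over all windows.

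Of the 18 BMP and GDF ligand genes, Bmp3 was lower and Bmp4 and Bmp6 were higher in HCN4FEA tissue at an unadjusted p under 0.05. Bmp3 encodes an atypical member of the family that antagonises other BMPs in bone. Its log2 signals were 5.12, 4.47 and 5.10 on WT 1, 2 and 3 and 4.20, 3.84 and 3.51 on HCN4FEA 1, 2 and 3. All HCN4FEA arrays lay below all WT arrays, and the gap between WT 2 and HCN4FEA 1, the nearest pair, was smaller than the range within either genotype. The difference was -1.05 on the log2 scale (interval -1.58 to -0.51, limma adjusted p = 0.724, and p = 0.1 by the exact two-sided permutation test). It ranged from -1.26 without WT 2 to -0.87 without HCN4FEA 3, was -0.76 without both WT 1 and HCN4FEA 3, and passed an unadjusted p of 0.05 in all of these fits and by the methods' t-test. The adipocyte scores moved the same way, with 0.50, 0.36 and 0.12 on WT 1, 2 and 3 and -0.17, -0.65 and -0.17 on HCN4FEA 1, 2 and 3, and their part in the Bmp3 result was not tested. The lowest adipocyte score was on HCN4FEA 2 and the lowest Bmp3 signal on HCN4FEA 3.

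Bmp4, a classical BMP that helps to pattern the inflow region of the embryonic heart, was at 5.22, 4.86 and 5.16 on WT 1, 2 and 3 and at 5.61, 5.38 and 5.78 on HCN4FEA 1, 2 and 3. The groups did not overlap. This came to a log2 fold change of 0.51 (interval 0.17 to 0.85, limma adjusted p = 0.778, and p = 0.1 by the exact two-sided permutation test). With any 1 array left out it lay between 0.40 and 0.61 and passed an unadjusted p of 0.05 each time, as it did without both WT 1 and HCN4FEA 3 (0.49) and by the methods' t-test.

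Bmp6, known as the ligand by which the liver senses iron, was at 4.41, 4.35 and 4.59 in WT and at 4.82, 4.78 and 4.61 in HCN4FEA tissue. WT 3 and HCN4FEA 3 all but met, at 4.59 and 4.61. The genotype means differed by 0.29 (interval 0.02 to 0.56, limma adjusted p = 0.809). Of the 6 fits that leave out an array, 2 kept Bmp6 past an unadjusted p of 0.05, without WT 3 (0.36) and without HCN4FEA 3 (0.35), and it was no longer past it at 0.27, 0.24, 0.25 and 0.27 without WT 1, WT 2, HCN4FEA 1 and HCN4FEA 2. It passed by the methods' t-test but not after each array was centred on its median (0.27).

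Bmp10, a ligand made by atrial myocytes, was among the clearly detected genes that did not separate the genotypes. Its log2 signals were 8.47, 9.23 and 8.92 on WT 1, 2 and 3 and 8.67, 9.11 and 7.72 on HCN4FEA 1, 2 and 3. One array, HCN4FEA 3, lay below the others. With all arrays the log2 fold change was -0.37 (interval -1.17 to 0.43), and without HCN4FEA 3 it was 0.02. That array also had the lowest score over the 8 other atrial myocyte markers, -0.23 against -0.02 to 0.15 on the other arrays, and its part in the Bmp10 value was not tested. Bmp2 (0.13, interval -0.32 to 0.58) and Bmp5 (0.07, interval -0.19 to 0.33), both BMPs that act in bone and in heart development, gave overlapping groups. The remaining 12 genes of this class had log2 fold changes from -0.09 for Bmp8a to 0.22 for Bmp7, none of them past the threshold, and of these Gdf10 was the one with a mean above the 99th percentile of the background (0.14, past an unadjusted p of 0.05 without HCN4FEA 1).

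**Figure D2:**
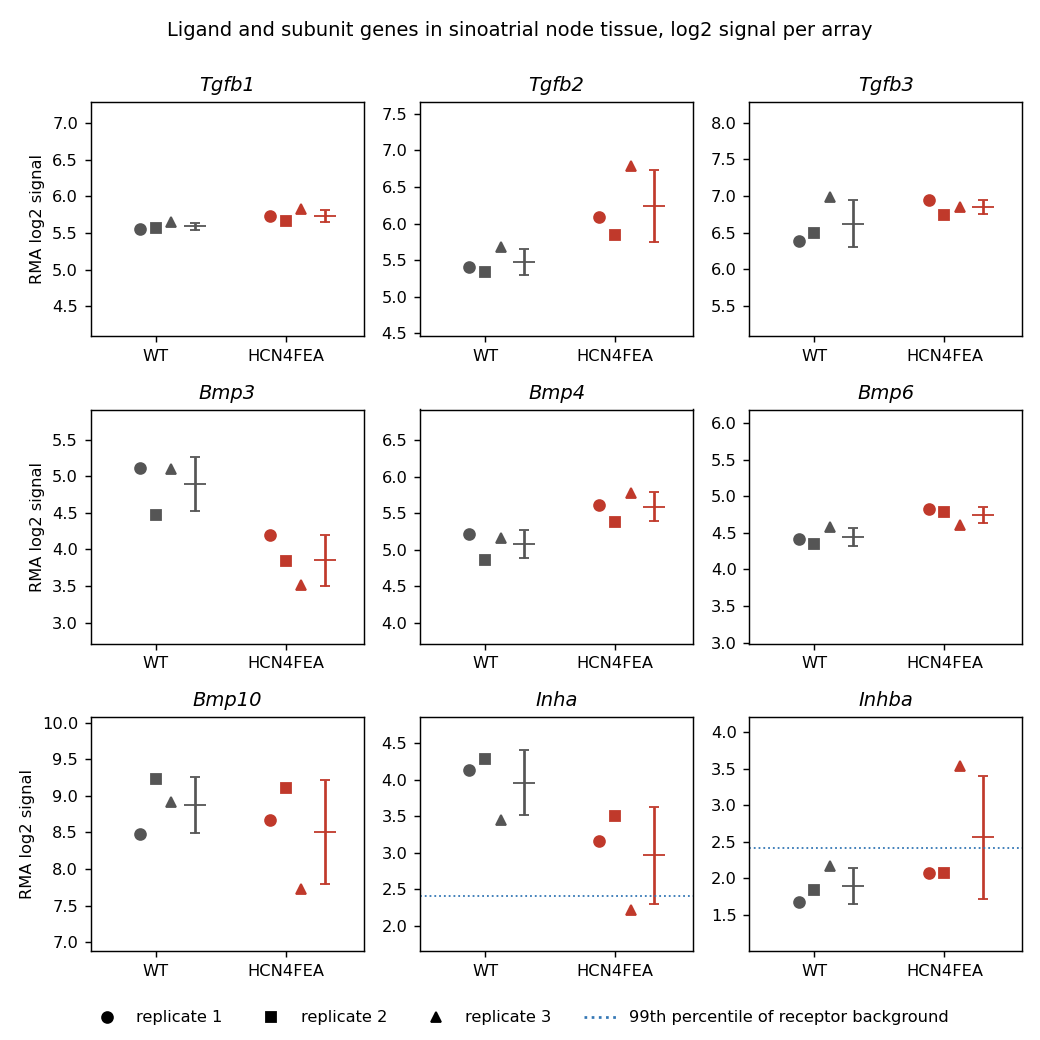
RMA log2 signal on each of the 6 arrays for 9 genes of ligands and ligand subunits, with symbols for the replicate number and, to the right of each group, its mean and SD (n = 3). Each panel spans the same number of log2 units, and the dotted line is the 99th percentile of the receptor background where it falls within the panel. Bmp3 lies lower and Tgfb1, Tgfb2, Bmp4 and Bmp6 higher on every HCN4FEA array, while HCN4FEA 3 stands apart in Bmp10 and Inhba.

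Inha, the alpha subunit that turns an activin into an inhibin, was at 4.13, 4.29 and 3.46 on WT 1, 2 and 3 and at 3.17, 3.50 and 2.22 on HCN4FEA 1, 2 and 3. The groups overlapped, since HCN4FEA 2 was above WT 3, and HCN4FEA 3 was at 2.22, under the 99th percentile of the background. The difference in means was -0.99 (interval -1.79 to -0.20, limma adjusted p = 0.783, and p = 0.2 by the exact two-sided permutation test). Inha was at -0.62 and still past an unadjusted p of 0.05 without HCN4FEA 3, and no longer past it without WT 1 (-0.91), without WT 2 (-0.83), without both WT 1 and HCN4FEA 3 (-0.54) or by the methods' t-test. Inhba, a subunit of activin A, was at 1.67, 1.84 and 2.16 on the WT arrays and at 2.08, 2.07 and 3.53 on the HCN4FEA arrays. HCN4FEA 3 was the one array above the 99th percentile of the background. The log2 fold change of 0.67 (interval -0.20 to 1.53) was 0.18 without it. The other beta subunit genes, Inhbb, Inhbc and Inhbe, had log2 fold changes between 0.05 and 0.11 at signals near or under the background.

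**Figure D3:**
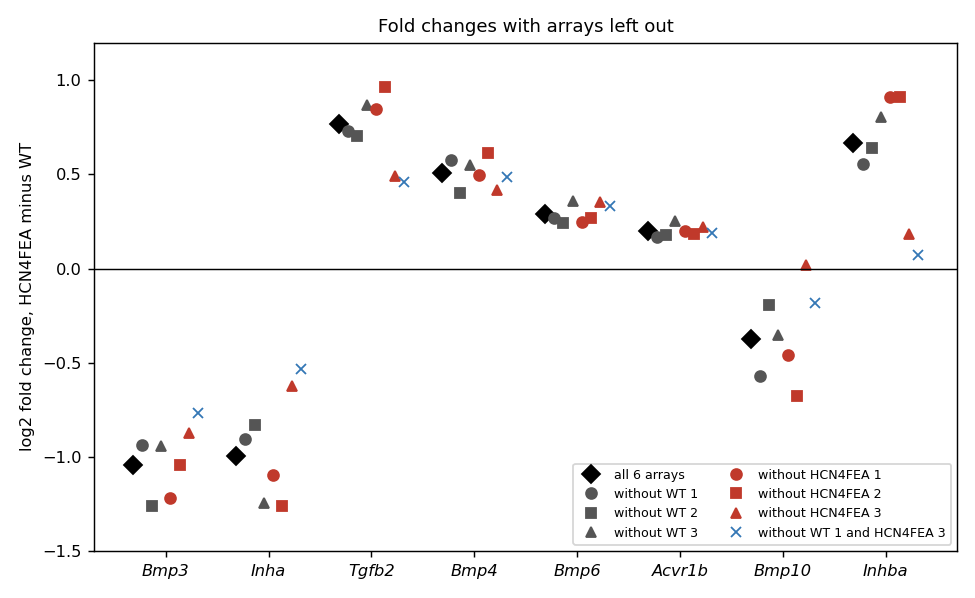
Log2 fold change (HCN4FEA minus WT) of 8 genes with all 6 arrays (diamonds), with each array left out in turn (grey for WT, red for HCN4FEA) and without WT 1 and HCN4FEA 3 together (crosses). Bmp3, Inha, Tgfb2, Bmp4, Bmp6 and Acvr1b keep their side of 0 in every fit shown, Tgfb2 falls to 0.49 and Inhba to 0.18 without HCN4FEA 3, and Bmp10 is at 0.02 there.

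The receptor genes showed small differences. None of the 7 type I and 4 type II receptor genes passed an unadjusted p of 0.05, and their log2 fold changes ran from -0.07 to 0.20. The 95% interval lay within 1.5-fold in either direction for all 11, of which 8 had a signal above the 99th percentile of the background. On the other 3, Acvr1c, Bmpr1b and Acvr2b, signals that low leave little room for a difference to be measured. Bmpr2, the type II receptor of BMPs, was the steadiest, at 8.48, 8.45 and 8.49 in WT and at 8.49, 8.50 and 8.49 in HCN4FEA tissue, a difference of 0.02 (interval -0.21 to 0.24). Tgfbr2, the type II receptor of TGF-beta, was at 0.09 (interval -0.30 to 0.48), and Acvr2a, an activin type II receptor, at -0.07 (interval -0.31 to 0.18).

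Acvr1b, the type I receptor of activins also known as ALK4, was the receptor gene whose groups did not overlap. It was at 4.33, 4.35 and 4.49 on WT 1, 2 and 3 and at 4.59, 4.63 and 4.55 on HCN4FEA 1, 2 and 3. Acvr1b differed by 0.20 (interval -0.04 to 0.44, limma adjusted p = 0.869), not past an unadjusted p of 0.05 by limma and past it by the methods' t-test. Among the other type I receptors, Tgfbr1, the partner of Tgfbr2, was at 0.00 (interval -0.45 to 0.45), Bmpr1a at 0.03 (interval -0.20 to 0.26), Acvr1, a BMP receptor, at 0.15 (interval -0.12 to 0.42) and Acvrl1, the endothelial receptor ALK1, at 0.08 (interval -0.28 to 0.44). The co-receptor gene Tgfbr3, also called betaglycan, was at 0.00 (interval -0.24 to 0.24). Tgfbrap1, whose protein binds TGF-beta receptors, was at 0.31 (interval -0.10 to 0.73) and passed an unadjusted p of 0.05 without HCN4FEA 3 (0.45).

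All 8 SMAD genes were detected above the 99th percentile of the background, and none passed an unadjusted p of 0.05. Their log2 fold changes lay between -0.09 for Smad1 and 0.16 for Smad9, and every 95% interval lay within 1.5-fold in either direction. Smad2 and Smad3, which carry the TGF-beta and activin signal, were at 0.04 (interval -0.27 to 0.35) and -0.03 (interval -0.39 to 0.34). Smad1, Smad5 and Smad9, which carry the BMP signal, were at -0.09, 0.08 and 0.16, and their shared partner Smad4 at 0.09 (interval -0.19 to 0.37). The inhibitory Smad6 and Smad7, themselves induced by the pathway, were at 0.05 (interval -0.26 to 0.36) and 0.05 (interval -0.29 to 0.40). Smad7 had its highest value, 5.65, on HCN4FEA 1 and its lowest, 5.12, on HCN4FEA 2, so that the WT arrays lay between.

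The name pattern also took 5 genes of other functions. Tgfbi, a matrix protein gene induced by TGF-beta, was at 7.64, 7.73 and 7.82 in WT and at 7.84, 7.87 and 7.86 in HCN4FEA tissue, groups that did not overlap with a log2 fold change of 0.13 (interval -0.11 to 0.37). Bmp2k, a kinase gene induced by BMP2, was likewise higher on every HCN4FEA array at 0.23 (interval -0.05 to 0.52), WT 1 and HCN4FEA 2 both lying at 5.46. Bmp1, a metalloprotease that trims procollagens, was at 0.28 (interval -0.09 to 0.64) and passed an unadjusted p of 0.05 without WT 3 (0.45). Bmper, a secreted BMP-binding protein, and Tgfb1i1, a focal adhesion adaptor, were at -0.10 and 0.05.

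Genes of the pathway that the name pattern leaves out were taken from 6 lists drawn up by textbook role, with 122 of 133 genes found. By limma 15 of these were higher and 3 lower with p unadjusted under 0.05, 12.3% and 2.46% beside 3.4% and 2.71% of all probe sets, and 0 passed an adjusted p of 0.05. The values of Thbs1, Ccn2, Timp1 and the collagen genes were known when the lists were drawn up, so this share is not independent of earlier results. By the methods' t-test 8 were higher, of which Chrdl2, Itgb8, Furin, Ski and Ccn2 were among those 15, and of the 3 lower genes Itgb6 passed it. Without HCN4FEA 3 there were 7 higher, 5 of them among the 15, and without both WT 1 and HCN4FEA 3 there were 6, of which Chrdl2, Furin, Ccn2 and Timp1 were. The calls lay in the lists of extracellular antagonists and carriers (6 higher of 28, 0 lower), of latent TGF-beta activation and pro-protein processing (4 higher and 2 lower of 17) and of TGF-beta target genes (6 higher of 26, 0 lower). Of 28 cytoplasmic and nuclear regulators 1 was higher and 1 lower, and of 12 other ligands and co-receptors and 22 BMP target genes 0 passed. Of the genes that passed, Thbs1 and Ltbp2 stand in more than 1 list.

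Among the antagonists and carriers, Chrdl2, a chordin-like BMP antagonist, was at 2.23, 1.98 and 2.32 on WT 1, 2 and 3 and at 2.74, 2.91 and 2.71 on HCN4FEA 1, 2 and 3. The WT values lay under the 99th percentile of the background and the HCN4FEA values above it. Its log2 fold change was 0.61 (interval 0.31 to 0.91, limma adjusted p = 0.724) and passed an unadjusted p of 0.05 in each of the 6 fits that leave out an array and by the methods' t-test. Fstl3, a follistatin-like binder of activins, was at 4.07, 4.76 and 4.91 in WT and at 5.14, 5.15 and 5.52 in HCN4FEA tissue. Its log2 fold change was 0.69 (interval 0.16 to 1.21), 0.43 without WT 1, which was the lowest array here and in the mesothelial score, and no longer past the threshold without HCN4FEA 3 (0.56), without both arrays (0.31) or by the methods' t-test. Of the latent TGF-beta binding proteins, which store TGF-beta in the matrix, Ltbp4 was at 0.39 (interval 0.04 to 0.74), Ltbp3 at 0.36 (interval 0.02 to 0.69), Ltbp2 at 0.53 with signals near the background, and Ltbp1 at 0.25 (interval -0.15 to 0.65). Ltbp2, Ltbp3 and Ltbp4 passed in 2 each of the 6 fits that leave out an array, with the lowest values at 0.39 without HCN4FEA 3, 0.29 without HCN4FEA 2 and 0.29 without WT 1. Lefty1, a Nodal antagonist, was at 0.42 near the background (0.25 and no longer past the threshold without HCN4FEA 3), and the BMP and activin antagonists Nog, Grem1 and Fst, with signals under the 99th percentile of the background, did not pass (0.05, -0.18 and 0.27), although Fst did without HCN4FEA 1 (0.47).

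Thbs1, thrombospondin 1, which can activate latent TGF-beta, was at 2.54, 2.73 and 3.27 on WT 1, 2 and 3 and at 3.32, 4.03 and 4.49 on HCN4FEA 1, 2 and 3. WT 3 and HCN4FEA 1 lay side by side, and the other HCN4FEA arrays were higher. The log2 fold change was 1.10 (interval 0.39 to 1.81, limma adjusted p = 0.764) and 0.83 without HCN4FEA 3. It was no longer past an unadjusted p of 0.05 without both WT 1 and HCN4FEA 3 (0.67) or by the methods' t-test. Furin, the protease that cuts the pro-proteins of this family, was at 6.12, 6.20 and 6.37 in WT and at 6.66, 6.66 and 6.52 in HCN4FEA tissue. Its log2 fold change of 0.38 (interval 0.12 to 0.65, limma adjusted p = 0.778) passed an unadjusted p of 0.05 in each of the 6 fits that leave out an array, without both WT 1 and HCN4FEA 3 and by the methods' t-test. Plat, the tissue plasminogen activator, was at 0.45 and the integrin subunit Itgb8, which binds latent TGF-beta, at 0.27, past it in 2 and 1 of those 6 fits, with the lowest values at 0.28 without WT 1 and 0.20 without WT 3. Lower were Itgb6, the other integrin subunit best known for activating latent TGF-beta, at -0.46 (interval -0.80 to -0.11) and the protease Mmp9 at -0.71 (interval -1.33 to -0.08), past the threshold in 4 and 3 of the 6 fits, and nearest to 0 at -0.34 without HCN4FEA 3 and -0.47 without WT 3.

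Of the target genes of TGF-beta, Ccn2, a matricellular protein, was at 7.90, 8.40 and 8.23 in WT and at 8.72, 8.74 and 8.92 in HCN4FEA tissue, a difference of 0.61 (interval 0.27 to 0.96) that passed an unadjusted p of 0.05 in each of the 6 fits, without both WT 1 and HCN4FEA 3 (0.41) and by the methods' t-test. Timp1, a protease inhibitor, was at 0.65, Cdkn1a, a cell cycle inhibitor, at 0.53, and Pmepa1, a membrane protein that dampens TGF-beta signalling, at 0.37, past the threshold in 6, 2 and 2 of the 6 fits, with the lowest values at 0.44 without WT 1, 0.38 without HCN4FEA 2 and 0.25 without HCN4FEA 3. Without both WT 1 and HCN4FEA 3, Timp1 was at 0.57 and still past it, Cdkn1a at 0.35 and Pmepa1 at 0.15 were not, and by the methods' t-test none of these genes passed. WT 1 was the lowest array for Ccn2, Timp1, Cdkn1a and Pmepa1, as it was for the mesothelial score, whose part was not tested. Scores over 10 macrophage markers ran from -0.21 to 0.04 on the WT arrays and from -0.10 to 0.21 on the HCN4FEA arrays, with 3 of 10 higher and 0 lower, and their part was not tested either. Id1, Id2 and Id3, the classical targets of BMP SMADs, gave overlapping groups at 0.11 (interval -0.25 to 0.48), 0.17 (interval -0.26 to 0.60) and 0.09 (interval -0.22 to 0.39). Bambi, a pseudoreceptor that damps the signal, was at 0.53 (interval -0.03 to 1.09) and Eng, an endothelial co-receptor, at 0.27 (interval -0.05 to 0.59), and without WT 3 both passed an unadjusted p of 0.05 (0.73 and 0.40). Of the regulators, Ski, a repressor of SMAD targets, was at 0.29 (interval 0.04 to 0.55) and Tab1, a partner of the kinase TAK1, at -0.39 (interval -0.76 to -0.02), past the threshold in 3 and 2 of the 6 fits, and nearest to 0 at 0.24 without HCN4FEA 3 and -0.24 without HCN4FEA 2.

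**Figure D4:**
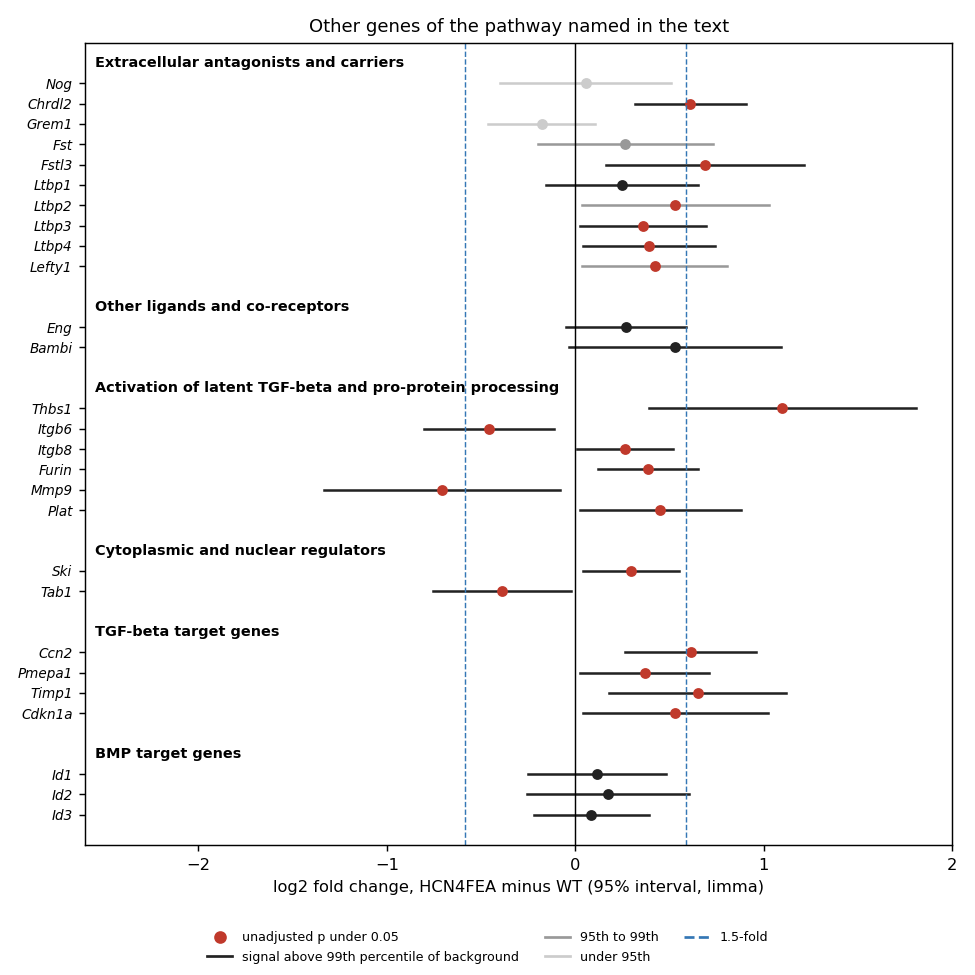
Log2 fold change (HCN4FEA minus WT) with its 95% confidence interval from limma for the genes of the pathway outside the symbol pattern that the text names, grouped by list, with each gene under the first list that holds it. Red points passed an unadjusted p of 0.05 and dashed lines mark 1.5-fold. Thbs1 lies farthest to the right at 1.10 and Mmp9 farthest to the left at -0.71, while Id1, Id2 and Id3 lie near 0.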

How the data were processed

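SAN tissue of 3 WT and 3 HCN4FEA arrays was compared. The authors read the arrays into Affymetrix Expression Console 1.0 and normalised them by RMA, and the deposited log2 values, 1 per probe set, were used unscaled; their own test was run in Partek 6.5. The array version named in the methods is another than that of the platform annotation, whose build no source used here gives. Of 41345 probe sets, 23521 have 1 symbol, 1820 several and 16004 none in the platform annotation. The 25341 with a symbol were fitted with limma 3.58.1 in R 4.3.3, without a replicate block or a filter on dim probe sets, and p-values were adjusted by Benjamini-Hochberg over all of them. Medians of the arrays ran from 2.44 to 2.51, and Pearson's r between 2 arrays, taken over probe sets that are no independent replicates, from 0.983 to 0.991. The methods' t-test is Welch's, used here at an unadjusted p of 0.05, with the methods' fold of 1.5 applied only where stated. The number of arrays limits the precision.

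The members, lists and rule for naming genes were chosen with earlier results of these data known. Named were members past an unadjusted p of 0.05, members with a mean of at least 4 and no overlap, all receptors, SMADs and Tgfb ligands, the brightest 4 and lowest-p 2 of each role, and in the other lists up to 5 genes of lowest p plus a fixed set, 37 and 25 genes. The remaining members named, Ltbp3 and Itgb8 were chosen after their values were seen. Marker lists covered sinoatrial, atrial, fibroblast, adipocyte, endothelial, smooth muscle, mesothelial, neuron, Schwann, macrophage, cartilage and skeletal muscle genes. Genes not found in the annotation were not analysed here. Plots used Python 3.11.15 and matplotlib 3.10.9.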

Additional observations from a re-analysis of the deposited data

How the results depend on the processing

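The number of arrays and, for 18 of the 52 genes, a signal not above the 99th percentile of the background limit these results. In all settings tried 0 members passed an adjusted p of 0.05. Bmp3 and Bmp4 stayed past an unadjusted p of 0.05 in all 16 alternatives and Tgfb2 in 14, failing by the methods' t-test and a t-test with equal variances. Bmp6 stayed past it in 7 of the 16, and Inha in 10 of the 15 that fitted it. Members lower at that p numbered 2 and fell to 1 by the methods' t-test, by the equal-variance t-test, among probe sets with a mean of at least 4 (where Inha was not tested) and without both WT 1 and HCN4FEA 3, an alternative chosen after seeing the data. Members past the fold of 1.5 as well numbered 3 and fell to 1 by both t-tests and without those arrays. With 1 array left out, members higher ranged from 2 to 5, the 5 without WT 3, members lower from 1 to 2, the 1 without WT 1 or WT 2, and those past the fold from 2 to 4. In these fits 5.14% to 8.03% of all probe sets passed in either direction, the 8.03% without WT 3, beside 6.1% with all arrays. Other pathway genes that were higher numbered 15, against 8 by the methods' t-test (5 of them among the 15) and 9 with all 41345 probe sets fitted (9 of them). Without both arrays there were 6 (4 of them), and with 1 left out 7 to 18. The 7 came without HCN4FEA 3 (5 of them) and the 18 without WT 3 (10 of them). Those lower numbered 3, against 0 to 3 with 1 left out, the 0 without WT 3 and 1 without HCN4FEA 1. Their count of 0 among probe sets with a mean of at least 4 is set by the filter, which left out Itgb6, Mmp9 and Tab1. The causes of the other shifts were not tested. The members' median log2 fold change ranged from 0.05 to 0.11 with 1 array left out. Over all probe sets, arrays with the same replicate number deviated together no more than others. Their r was -0.05, 0.09 and -0.03 for numbers 1, 2 and 3, beside -0.13 to 0.15 for unlike numbers. This cannot exclude pairing for single genes, and the labels do not say whether the numbers pair the arrays. With the replicate number as a block 3 members were higher, Inhba in place of Bmp6, and 2 lower. Of the members 4 passed the fold as well and 0 an adjusted p, with a median of 0.08. Among the other pathway genes 18 were higher and 3 lower, and 6.26% of all probe sets passed. The unadjusted limma p with the block and without it was 0.00032 and 0.020 for Inha, 0.00026 and 0.0072 for Thbs1, and 0.078 and 0.040 for Bmp6.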

Other observations

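The arrays differed in how often they held the extreme value of a member. HCN4FEA 3 was the highest of the 6 arrays for 17 of the 52 genes (32.7%, beside 19.3% of all probe sets tested) and WT 1 the lowest for 16 (30.8% beside 20.5%), and these were the arrays with high neuron marker scores. The median deviation from a gene's average over the arrays was 0.08 log2 units on HCN4FEA 3 and -0.10 on WT 1 over the members, beside 0.00 and -0.02 over all probe sets tested. The median signal was 2.51 on HCN4FEA 3 and 2.44 to 2.47 on the other arrays, and the part of these differences between arrays in the members' values was not tested.

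Of the 52 genes, 6 lie on chromosome 9 with Hcn4, the targeted gene. Smad3 and Smad6 are nearest, with 36 and 37 protein-coding RefSeq genes between them and Hcn4, and both had log2 fold changes near 0 (-0.03 and 0.05). The others on that chromosome, Bmp5, Acvr2b, Tgfbr2 and Bmper, lay between -0.10 and 0.09.

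Probe sets that share a symbol with another gene were left out of the members. The one of Bmpr2 with Gm20272 was at -0.01, that of Bmp2k with Paqr3 at -0.02 and that of Gdf1 with Cers1 at -0.13, none past an unadjusted p of 0.05.

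Of the marker lists, 1 of 9 atrial, 1 of 10 endothelial, 1 of 7 Schwann cell and 3 of 10 skeletal muscle genes were higher at an unadjusted p under 0.05, and 1 of 10 smooth muscle and pericyte genes was lower. Over all probe sets 3.4% were higher and 2.71% lower. The skeletal muscle genes that passed were Tnnt3 (1.42), Casq1 (1.05) and Acta1 (0.77), with groups that did not overlap. The others in that list ran from -0.25 for Myh4 to 0.23 for Myh2, both under the background's 95th percentile. In the lists of 14 sinoatrial, 10 fibroblast, 10 mesothelial and 13 neuron genes 0 passed by limma in either direction.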
